A study of Homo sapiens with 6 samples.

Results

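The genes described here encode the activin and inhibin subunits, the activin antagonists follistatin and FSTL3, and the follistatin-like protein FSTL1. They are 7 genes, INHA, INHBA, INHBB, INHBE, FST, FSTL1 and FSTL3, taken by name from the 41497 named entries of each expression table, and only their entries on the primary chromosomes were used. The libraries come from HK-2, an immortalised proximal tubular epithelial cell line of human kidney whose genotype label is wild type. Control cells were untreated and the others received TGF-β1, the profibrotic cytokine, with 3 libraries in each group, all at 24 hours. The study made the comparison to look for pathways downstream of TGF-β. The labels give no dose and describe culture with fetal bovine serum. The methods describe TGF-β treatment without serum and give a dose for such experiments in general, not for the sequenced libraries. Neither source says which medium the control cells had. Nothing states that the libraries of a group came from separate cultures, so the p values measure only the spread between these libraries, which may be technical.

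Activins are secreted ligands of the TGF-β superfamily built from paired β subunits, and activin A is the dimer of the βA subunit that INHBA encodes. Inhibins pair the α subunit, encoded by INHA, with a β subunit and oppose activins. Activins bind the type II receptors ACVR2A and ACVR2B, which engage the type I receptor ACVR1B, and SMAD2 and SMAD3 carry the signal to the nucleus. Follistatin and the FSTL3 protein hold activins away from these receptors. In the kidney, activin A is known as a factor that tubular cells release after injury and that acts on fibroblasts.

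Library totals lay between 21.9 and 26.9 M counts (M, megacounts). The groups separated on the leading principal component (69.7% of the variance), and the next one (9.9%) placed TGF-β1 replicate 1 at 26.9 and the other TGF-β1 libraries at -13.2 and -15.1. Across 14860 tested genes, 22.2% were called higher and 22.1% lower after TGF-β1 by the edgeR quasi-likelihood test at a Benjamini-Hochberg adjusted p under 0.05. With scaling by total counts only, 2134 genes were called higher and 4590 lower in place of 3294 and 3288, and the median log2 fold change over the tested genes shifted by -0.11. Of 13 markers of renal tubular epithelium, 10 had reads in every library, LRP2 was listed at 0 throughout, and CDH1 (0.0846 and 0.0394 CPM in control and TGF-β1 libraries) and ANPEP (0.0437 and 0.0435 CPM) were near 0. CPM here is the read count scaled to a common library size after TMM adjustment. Of the 10 tested, 5 were called higher, namely KRT8 (488 and 764 CPM), KRT18 (202 and 303), CDH2 (304 and 629), AQP1 (0.396 and 1.72) and CUBN (0.485 and 0.861). AQP1 and CUBN were thus at low levels in both groups. AQP1 passed the filter on low counts (minimum count 10) only through the TGF-β1 libraries, with 5, 7 and 16 control reads. Its presence among the tested markers is thus tied to its difference. CUBN was near this minimum in control, with 13, 10 and 11 reads. The other 5 were called lower, namely KRT19, EPCAM, PAX8, PAX2 and GGT1 with log2 fold changes from -1.34 to -0.58. The summed CPM of the 13 markers, to which KRT8 and CDH2 contributed most, was 1428 to 1506 in control and 1892 to 2047 in TGF-β1 libraries. The fibroblast and pericyte sum over 6 genes was 65.7 to 75.7 and 61.4 to 63.1, with reads for 5 of the genes in every library, and LUM (61.7 and 51.0 CPM) made up most of it. Of the 4 tested, PDGFRB (0.551 and 5.79 CPM) was called higher. LUM, THY1 and RGS5 were called lower, with log2 fold changes of -0.28, -1.72 and -0.35. THY1 passed the filter only through the control libraries, with 8, 4 and 7 reads in the TGF-β1 libraries, so its test is tied to its difference. PDGFRA and DCN stayed at 0.168 CPM or lower on average. The leukocyte sum over 5 genes was 92.3 to 102 and 61.0 to 84.6, nearly all of it CD68, with CD3E at 0. The endothelial sum over 5 genes was 0.940 to 1.68 and 0 to 0.0955, and none of these genes had reads in every library. The part of these marker levels in the results was not tested.

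After TGF-β1, INHBA and FSTL3, the members with the highest levels, rose more than 2-fold in the edgeR fit with TMM scaling. FSTL3 was near that limit and did not pass it in every other fit. FSTL1 rose slightly with a call that depended on the fit, and FST and INHBE fell. In such bulk libraries, fewer cells that express a gene and less of its RNA per cell cannot be told apart. Of the 7 members, 5 passed the filter on low counts. Among these 5, 3 were called higher and 2 lower, beside 22.2% and 22.1% of all tested genes. In CPM, the groups did not overlap for 27.9% of all tested genes, higher, and 27.7%, lower, so non-overlap alone was common. INHBA and FSTL3 belonged to the 547 genes, 3.68% of those tested, that were called higher by at least 2-fold, and FST belonged to the 800 genes, 5.38%, called lower by at least 2-fold. FST passed the filter only through the control libraries, where its counts were above the minimum, so its presence among the tested members is itself tied to its difference. INHA and INHBB were under the filter in both groups.

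**Figure D1:**
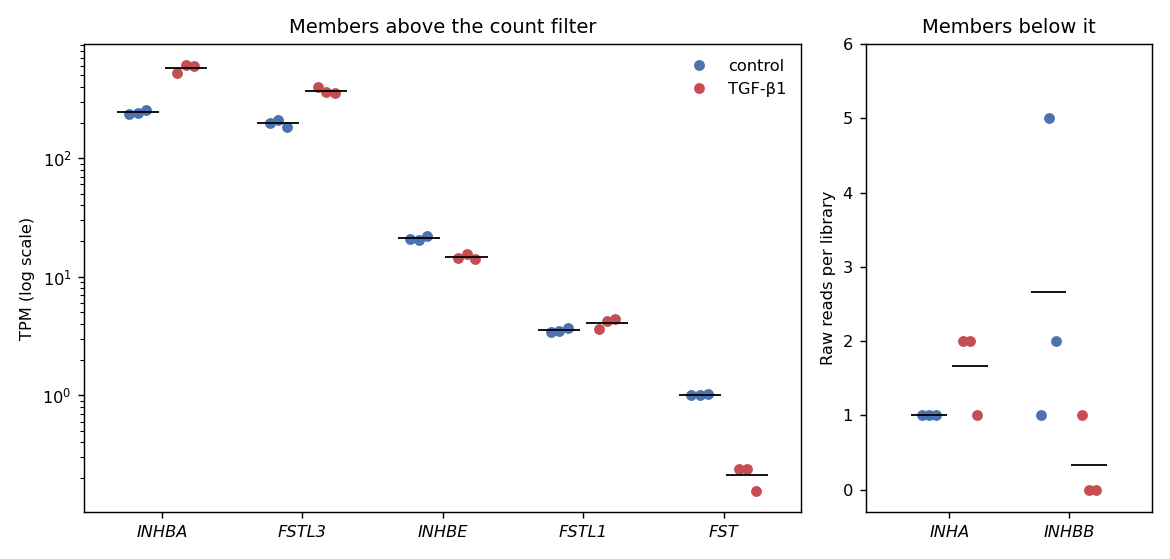
Levels of the 7 members in each library. The left panel plots TPM on a log scale for the 5 members above the count filter and the right panel plots raw reads per library for INHA and INHBB, with control libraries in blue, TGF-β1 libraries in red and a bar at each group mean. INHBA (control mean 244, TGF-β1 mean 576 TPM) and FSTL3 (196 and 371 TPM) lie far above the other members in both groups, and FST drops from 1.01 to 0.213 TPM.

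Levels were compared between genes in TPM, which divides reads by the exonic length of the gene and scales the result to a common total. In control cells the order was INHBA at 244 ± 8.85 TPM, FSTL3 at 196 ± 12.4, INHBE at 21.1 ± 0.901, FSTL1 at 3.54 ± 0.129, FST at 1.01 ± 0.0185, INHBB at 0.116 ± 0.0862 and INHA at 0.105 ± 0.00384 (SD, n = 3). Neighbours in this order did not overlap, except INHBB and INHA. After TGF-β1 the first 5 places were held by the same genes, with INHBA at 576 ± 42.8 TPM, FSTL3 at 371 ± 24.0, INHBE at 14.7 ± 0.787, FSTL1 at 4.10 ± 0.401 and FST at 0.213 ± 0.0486 (SD, n = 3). FST then overlapped with INHA, at 0.157 ± 0.0425 TPM, and INHBB was last at 0.0119 ± 0.0205 TPM. Among all 41497 named entries INHBA moved from rank 668 to rank 226 by mean TPM and FSTL3 from rank 868 to rank 394.

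INHBA encodes the βA subunit and lies at chr7:41685101-41710532 on the minus strand of GRCh38, with 7 exon blocks in the files. The 250 bases before its RefSeq start at position 41703090 (GRCh38.p14, chr7:41703091-41703340, minus strand) are shown because INHBA was the most abundant member and rose. This start is one of several, and the window falls in an intron of longer INHBA transcripts. Capitals mark matches to CCAAT, the CCAAT box, which lie 85 and 42 bases before the start.
INHBA: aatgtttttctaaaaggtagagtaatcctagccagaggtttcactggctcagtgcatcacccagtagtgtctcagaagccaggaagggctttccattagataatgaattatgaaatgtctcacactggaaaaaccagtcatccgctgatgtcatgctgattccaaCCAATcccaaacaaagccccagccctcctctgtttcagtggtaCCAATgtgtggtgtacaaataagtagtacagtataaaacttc
Its GC content was 42.8%, beside a median of 58.0% over 35116 RefSeq windows of the same length. CCAAT or its reverse complement ATTGG stood in 32.0% of these windows. No match to CAGAC, the SMAD box present in 38.0% of all windows, to TGANTCA, the AP-1 site present in 6.6%, or to TGACG, the CRE half-site present in 21.2%, was found on either strand, which says only that these letters are not in this window.

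INHBA measured 589.6 CPM in control replicate 1, 589 in replicate 2 and 609 in replicate 3. It measured 1442, 1573 and 1557 CPM in the TGF-β1 libraries. Every TGF-β1 library was far above every control library, and TGF-β1 replicate 1 was the lowest of its group. The group means were 596 ± 11.2 and 1524 ± 71.5 CPM (SD, n = 3), and the log2 fold change was 1.35 ± 0.06 (SE; 95% interval 1.23 to 1.48; edgeR adjusted p = 1.5e-08), a 2.56-fold rise. By log2 fold change INHBA ranked 415 of the 14860 tested genes. Outside the members, and among genes averaging 5 CPM or more, the patterns most like that of INHBA over the 6 libraries belonged to TNS1, JARID2 and P2RY2, with root mean square differences of centred log2 CPM of 0.0274, 0.0383 and 0.0413 among 10594 genes compared. Their log2 fold changes were 1.32, 1.35 and 1.42.

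INHBE encodes the βE subunit of activin E, best known from liver, and lies at chr12:57455307-57458025 on the plus strand with 2 exon blocks. It measured 15.7, 15.1 and 16.1 CPM in the control libraries and 11.9, 12.3 and 11.3 CPM in the TGF-β1 libraries. The groups did not overlap, as for 27.7% of all tested genes in this direction. The means were 15.6 ± 0.473 and 11.8 ± 0.485 CPM (SD, n = 3), from 1101 and 843 reads, and the log2 fold change was -0.40 ± 0.08 (SE; 95% interval -0.57 to -0.24; edgeR adjusted p = 0.0014).

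INHBE is known to be induced by the integrated stress response, in which the factor ATF4 raises genes of amino acid supply and stress adaptation, so 9 genes of that response were read beside it. Of these, 7 were tested, and 0 were called higher and 2 lower, beside 22.2% and 22.1% of all tested genes. DDIT4, an inhibitor of mTORC1 signalling, fell with a log2 fold change of -0.53 ± 0.07 (edgeR adjusted p = 1.7e-04), and PSAT1, an enzyme of serine synthesis, fell with -0.40 ± 0.07 (edgeR adjusted p = 0.0011). TRIB3, a pseudokinase, had a log2 fold change of -0.18 (edgeR adjusted p = 0.0602) and was called lower without TGF-β1 replicate 1 (-0.24), with a mean of at least 50 counts (-0.20) and with scaling by total counts only (-0.29), where the edgeR adjusted p was 0.00626, 0.0378 and 0.00708. CHAC1, a glutathione-degrading enzyme, had -0.17 (edgeR adjusted p = 0.287). The other 3 tested genes were not called either, with log2 fold changes of 0.06 for ATF4, 0.07 for the stress-induced factor DDIT3 and -0.02 for PHGDH, the first enzyme of serine synthesis (edgeR adjusted p = 0.498, 0.459 and 0.805). ASNS had 20 reads in control and 19 in TGF-β1 libraries, and SESN2 was listed at 0. The median log2 fold change of the 7 tested genes was -0.17, beside 0.00 over all tested genes. A link between these genes and the fall of INHBE was not tested.

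INHBB, which encodes the βB subunit, lies at chr2:120346136-120351803 on the plus strand and INHA, which encodes the α subunit, at chr2:219572310-219575711 on the plus strand. INHBB had 1, 5 and 2 reads in the control libraries and 1, 0 and 0 in the TGF-β1 libraries. Its summed reads were 8 and 1, and the ratio corrected for library size was 0.124 with a 95% exact binomial interval of 0.00279 to 0.924, which covers counting error only. INHA had 1 read in each control library and 2, 2 and 1 in the TGF-β1 libraries, with a ratio of 1.65 and an interval of 0.321 to 10.6. By the two-sided exact permutation test of CPM, p was 0.1 for each gene, the smallest value that 3 libraries against 3 can give. This separation rests on the scaling for library size, since each gene had libraries with 1 read in both groups. When every gene with any count was fitted, the edgeR adjusted p was 0.122 for INHBB and 0.709 for INHA. Neither gene was called, and both rest on few reads.

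Among the β subunits of the members, the transcripts were mostly those of INHBA, and this share rose. INHBC, a β subunit outside the members, was left out, with means of 0.204 and 0.0677 TPM in control and TGF-β1 libraries. INHBA made up 91.9%, 92.1% and 92.0% of the summed TPM of INHBA, INHBB and INHBE in the control libraries. It made up 97.4%, 97.5% and 97.7% in the TGF-β1 libraries. The groups did not overlap, and the means of 92.0% ± 0.105 and 97.5% ± 0.154 (SD, n = 3) differed by 5.50 percentage points (two-sided exact permutation p = 0.1, the smallest possible). With raw counts in place of TPM the difference was 1.80 points. The higher share follows from the rise of INHBA and the fall of INHBE and is no separate support for either.

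FSTL3 encodes a secreted glycoprotein that binds activins and related ligands. It lies at chr19:676392-683385 on the plus strand with 5 exon blocks. The 250 bases before its RefSeq start (GRCh38.p14, chr19:676142-676391, plus strand) are shown. FSTL3 was chosen as the only other member that rose at least 2-fold in the edgeR fit with TMM scaling. Capitals mark matches to GGGCGG, the GC box, or its reverse complement CCGCCC, which begin 223, 67, 55 and 50 bases before the start, the last pair sharing a base.
FSTL3: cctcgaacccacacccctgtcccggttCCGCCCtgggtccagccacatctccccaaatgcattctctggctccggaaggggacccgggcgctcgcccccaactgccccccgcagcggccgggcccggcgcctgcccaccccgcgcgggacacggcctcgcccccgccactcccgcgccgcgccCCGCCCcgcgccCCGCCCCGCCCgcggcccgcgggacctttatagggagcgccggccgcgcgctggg
Its GC content was 80.0%, against 42.8% in the INHBA window. The GC box stood in 42.6% of the 35116 windows. The SMAD box, the AP-1 site, the CRE half-site and the CCAAT box were not found in it, so none of the 5 motifs searched was shared by the INHBA and FSTL3 windows. The motifs were chosen after the sequences had been seen.

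FSTL3 measured 150.3 CPM in control replicate 1, 157 in replicate 2 and 136 in replicate 3. It measured 335, 288 and 285 CPM in the TGF-β1 libraries, where replicate 1 was the highest, unlike for INHBA. No TGF-β1 library came near the control range. The means were 148 ± 11.0 and 303 ± 28.2 CPM (SD, n = 3), with a log2 fold change of 1.04 ± 0.08 (SE; 95% interval 0.86 to 1.21; edgeR adjusted p = 1.6e-06), a 2.05-fold rise. The rise was under 2-fold with scaling by total counts only (log2 fold change 0.93), without TGF-β1 replicate 1 (0.94) and without control replicate 3 (0.98).

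FST encodes follistatin, the classical activin-binding protein. It lies at chr5:53480338-53487134 on the plus strand with 8 exon blocks. A stretch of 27 bases before its RefSeq start at 53480629 (GRCh38.p14, chr5:53480459-53480485, plus strand) is shown because it holds the AP-1 site TGATTCA, in capitals, which begins 160 bases before the start. The stretch lies inside the FST entry of the files, which begins further upstream than this start. The 250 bases before the start also held 1 match to the CCAAT box and 2 to the GC box.
FST: aaatgtcaccTGATTCAcactgaactt
The match is a description of these letters, and 6.6% of all windows hold one.

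FST had 26, 28 and 27 reads in the control libraries and 8, 7 and 4 in the TGF-β1 libraries. In CPM these were 1.15, 1.14 and 1.15 against 0.307, 0.290 and 0.191. The control libraries lay close together and all 3 TGF-β1 libraries were far below them. The log2 fold change was -2.09 ± 0.28 (SE; 95% interval -2.71 to -1.46; edgeR adjusted p = 1.4e-04), which left 0.235 of the control level, on 81 and 19 reads in all. Follistatin was thus measured from few reads, and with a minimum mean of 50 counts it was not tested. The patterns most like that of FST belonged to AK5, PTGS1 and SLC48A1, with root mean square differences of 0.0946, 0.114 and 0.123 and log2 fold changes of -1.80, -2.00 and -1.89.

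The antagonist transcripts able to bind activins were almost all FSTL3. FST made up 0.505%, 0.480% and 0.559% of the summed TPM of FST and FSTL3 in the control libraries. It made up 0.0606%, 0.0666% and 0.0443% in the TGF-β1 libraries. The groups did not overlap, and the difference was -0.457 percentage points (two-sided exact permutation p = 0.1, the smallest possible), or -0.689 points with raw counts. This follows from the fall of FST and the rise of FSTL3 and is no separate support for either. There were 194 ± 14.7 FSTL3 transcripts for each FST transcript in control cells and 1802 ± 400.3 after TGF-β1 (SD, n = 3). The latter value rests on 8, 7 and 4 FST reads in the TGF-β1 libraries.

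The balance of antagonist to ligand transcripts was also computed, a quantity chosen after its values were seen and given without a test. The ratio of FST plus FSTL3 to INHBA in TPM was 0.831, 0.870 and 0.726 in the control libraries and 0.755, 0.594 and 0.595 in the TGF-β1 libraries. The groups overlapped, since TGF-β1 replicate 1 lay inside the control range. The means were 0.809 ± 0.0745 and 0.648 ± 0.0927 (SD, n = 3).

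**Figure D2:**
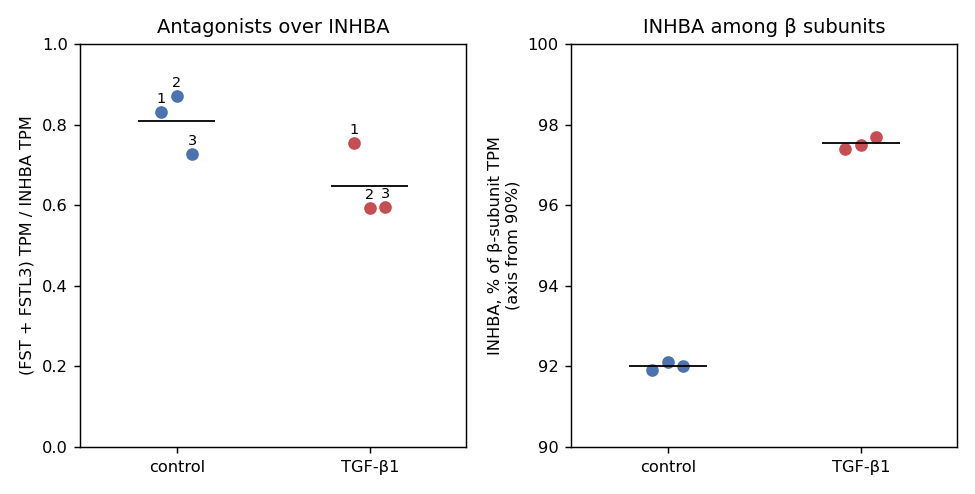
Ratios within each library. The left panel plots the TPM of FST plus FSTL3 divided by the TPM of INHBA, with the replicate number above each point, and the right panel plots INHBA as a percentage of the summed TPM of INHBA, INHBB and INHBE on an axis from 90%, with bars at the group means. In the left panel TGF-β1 replicate 1, at 0.755, lies between the control libraries, and in the right panel the groups stand apart at 92.0% and 97.5%.

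FSTL1 encodes a secreted glycoprotein with a follistatin-like domain that is abundant in mesenchymal cells. It lies at chr3:120392293-120450993 on the minus strand with 10 exon blocks. It measured 7.36, 7.32 and 7.59 CPM in the control libraries and 8.56, 9.43 and 9.93 in the TGF-β1 libraries, which did not overlap. In TPM, where levels were 3.45, 3.49 and 3.69 against 3.65, 4.24 and 4.41, TGF-β1 replicate 1 fell inside the control range. The log2 fold change was 0.33 ± 0.10 (SE; 95% interval 0.11 to 0.54; edgeR adjusted p = 0.0197), a 1.25-fold rise on 523 and 659 reads. The call was lost with DESeq2 (adjusted p = 0.0914), with scaling by total counts only (log2 fold change 0.22, edgeR adjusted p = 0.0965) and without control replicate 1, control replicate 2, TGF-β1 replicate 2 or TGF-β1 replicate 3, where the edgeR adjusted p was 0.0586, 0.0636, 0.0609 and 0.0841.

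**Figure D3:**
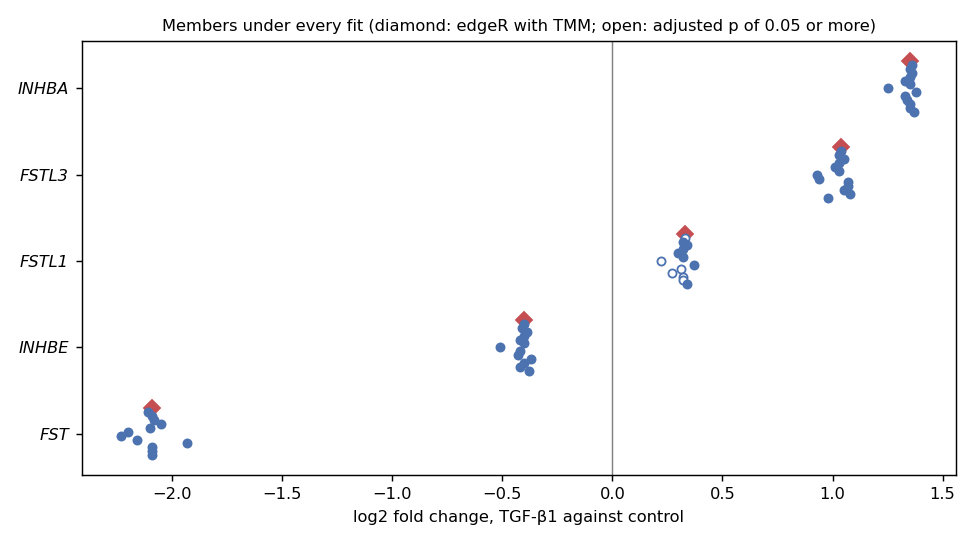
Log2 fold changes of the 5 tested members in each fit. Red diamonds are the edgeR fit with TMM scaling, circles are the 13 alternative fits (12 for FST), and open circles have an adjusted p of 0.05 or more. INHBA stays between 1.25 and 1.38, FSTL3 between 0.93 and 1.08, INHBE between -0.51 and -0.37 and FST between -2.23 and -1.93, and open circles occur only for FSTL1, which stays between 0.22 and 0.37.

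The receptors moved in both directions. Of 9 genes of receptors and co-receptors, 6 were tested, and 3 were called higher and 3 lower, beside 22.2% and 22.1% of all tested genes. ACVR2A, a type II receptor, rose from 4.02 ± 0.806 to 6.05 ± 0.315 CPM (SD, n = 3; log2 fold change 0.59 ± 0.15, edgeR adjusted p = 0.0097). ACVR2B, the other type II receptor, fell from 15.7 ± 1.09 to 11.3 ± 1.77 CPM (log2 fold change -0.47 ± 0.11, edgeR adjusted p = 0.0059). Type I receptors also split. ACVR1B, the main activin type I receptor, measured 62.8, 59.6 and 62.6 CPM in control and 46.4, 48.7 and 45.8 CPM in TGF-β1 libraries, without overlap (log2 fold change -0.39 ± 0.06, edgeR adjusted p = 2.2e-04). ACVR1, a type I receptor used mainly by BMPs, rose from 15.9 ± 0.877 to 28.2 ± 1.62 CPM (log2 fold change 0.83 ± 0.07, edgeR adjusted p = 5.1e-06).

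The calls of the co-receptors depended on the fit. BAMBI, a decoy receptor without a kinase domain, rose with a log2 fold change of 0.64 ± 0.20 (edgeR adjusted p = 0.0207), and TGFBR3, or betaglycan, which presents inhibins and TGF-β, fell with -0.49 ± 0.15 (edgeR adjusted p = 0.0229). Both calls were lost with DESeq2, at adjusted p values of 0.115 and 0.108. The BAMBI call was also lost without TGF-β1 replicate 2 or 3 or control replicate 1 or 3, with edgeR adjusted p values from 0.0517 to 0.0774. The TGFBR3 call was lost without TGF-β1 replicate 3, control replicate 1 or control replicate 2, with edgeR adjusted p values from 0.0579 to 0.0927. ACVR1C had 15 reads in control and 13 in TGF-β1 libraries, TDGF1 had 1 and 0, and IGSF1 was listed at 0. The median log2 fold change of the 6 tested receptor genes was 0.10.

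Among 6 SMAD genes and their partners, 5 were tested. SMAD7, the inhibitory SMAD and a known early target of TGF-β signalling, measured 20.1, 18.4 and 15.5 CPM in control and 58.1, 53.9 and 56.3 CPM in TGF-β1 libraries. These groups were widely separated, with a log2 fold change of 1.64 ± 0.09 (edgeR adjusted p = 1.0e-07). SMAD3, a transducer that activins share with TGF-β, moved the other way, from 415 ± 0.940 to 192 ± 11.4 CPM (SD, n = 3; log2 fold change -1.11 ± 0.06, edgeR adjusted p = 7.0e-08). ZFYVE9, which anchors SMAD2 and SMAD3 near the receptor, fell with -0.37 ± 0.08 (edgeR adjusted p = 0.0031). SMAD2, the transducer most like SMAD3, had 0.12 ± 0.05 (edgeR adjusted p = 0.0800), with an interval of 0.01 to 0.24. The common partner SMAD4 had -0.05 ± 0.06 (edgeR adjusted p = 0.510) and was called lower with scaling by total counts only, at -0.16. FOXH1, a DNA-binding partner of SMADs, had 6 and 2 reads. The median over the 5 tested genes was -0.05.

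Activin precursors are cut by proprotein convertases before they can signal, and 4 of these enzymes were read. FURIN measured 44.1, 46.7 and 44.9 CPM in control and 143, 133 and 126 CPM in TGF-β1 libraries. Every TGF-β1 library exceeded every control library, and the log2 fold change was 1.57 ± 0.06 (edgeR adjusted p = 1.1e-08), a 2.97-fold rise. PCSK7 measured 19.6 ± 1.68 and 19.8 ± 1.60 CPM (SD, n = 3; edgeR adjusted p = 0.904), with a 95% interval of the log2 fold change from -0.18 to 0.21. PCSK5 had 6 and 14 reads and PCSK6 had 8 and 8. Of the 2 convertases tested, 1 was called higher and 0 lower, beside 22.2% and 22.1% of all tested genes.

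**Figure D4:**
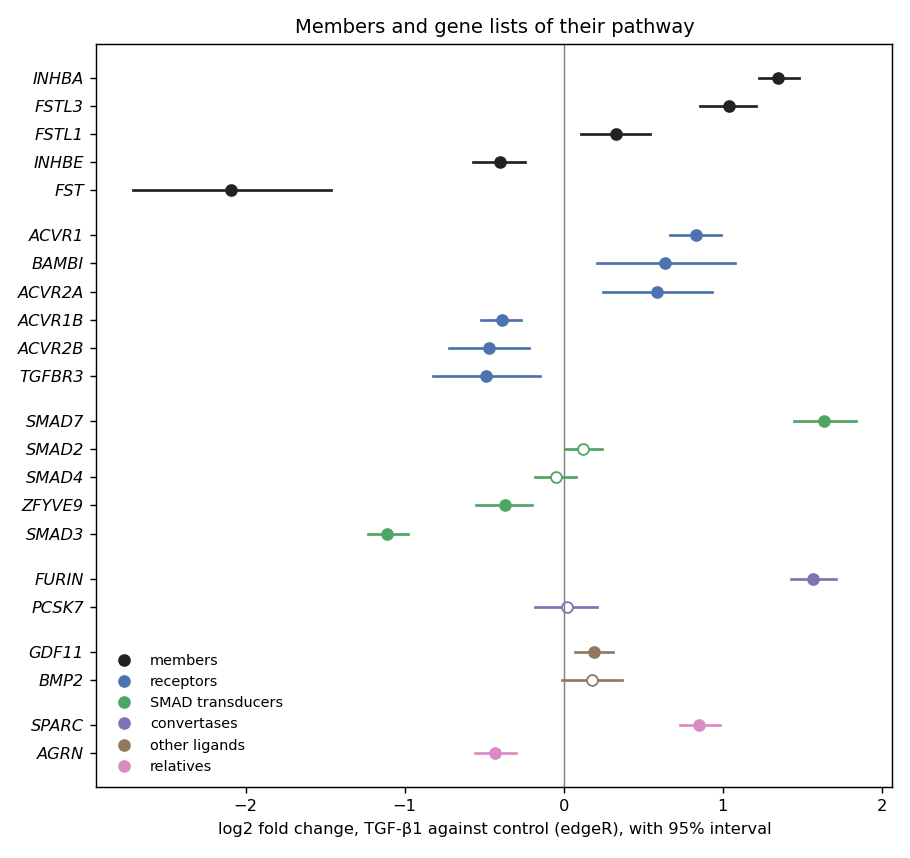
Log2 fold changes, TGF-β1 against control, with 95% intervals from edgeR, for the tested members and the tested genes of 5 lists of their pathway. Filled points were called at an adjusted p under 0.05 and open points were not. INHBA, FSTL3, SMAD7 and FURIN lie at 1.04 or more, FST and SMAD3 lie at -1.11 or less, and the receptors fall on both sides of 0.

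Few other ligands of these receptors or of follistatin were expressed. Of 8, 2 were tested, and 1 was called higher and 0 lower, beside 22.2% and 22.1% of all tested genes. GDF11, a relative of myostatin, went from 40.6 ± 1.07 to 46.3 ± 0.352 CPM (SD, n = 3; log2 fold change 0.19 ± 0.06, edgeR adjusted p = 0.0175). That call was lost with scaling by total counts only, at 0.08, and without TGF-β1 replicate 3 or control replicate 2, with edgeR adjusted p values of 0.0651 and 0.0876. BMP2 had 0.18 (edgeR adjusted p = 0.122). MSTN had 3 and 4 reads, NODAL 7 and 9 and BMP6 8 and 20, while GDF1, GDF3 and BMP7 were listed at 0.

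The relatives outside the members were 8 genes with a follistatin-like domain or, for INHBC, another β subunit, and 2 of them were tested. SPARC, a collagen-binding matrix protein, rose from 1243 ± 50.2 to 2243 ± 51.6 CPM (SD, n = 3; log2 fold change 0.85 ± 0.06, edgeR adjusted p = 5.4e-07). AGRN, a heparan sulfate proteoglycan of basement membranes, fell from 779 ± 51.4 to 578 ± 10.8 CPM (log2 fold change -0.43 ± 0.06, edgeR adjusted p = 1.9e-04). INHBC had 14 and 5 reads, FSTL5 had 5 and 1 and SMOC1 had 3 and 2. SPARCL1 had 4 and 23 reads, a ratio of 5.70 with a 95% exact binomial interval of 1.95 to 22.7. The exact permutation p was 0.1, the smallest possible, though replicate 3 of each group had 3 reads and only scaling for library size separated them. When every gene with any count was fitted, its log2 fold change was 2.41 ± 0.72 (edgeR adjusted p = 0.00625). FSTL4 and SMOC2 were listed at 0. Over all 6 lists, 15 of the 24 genes tested were called in either direction, beside 44.3% of all tested genes, and the other 20 of the 44 listed genes were not tested.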

How the data were processed

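Poly(A) mRNA from 3 control and 3 TGF-β1 HK-2 libraries was sequenced with paired ends on a DNBseq platform. Adapters and reads of low quality were removed by the authors. The submitters' processing notes name CASAVA, featureCounts 2.0.1, DESeq2 1.16.1 and hg38, and the aligner and the strand setting are not given in the sources used here. The deposited tables hold raw counts per gene, and TPM and FPKM values that the authors derived from the counts. TPM recomputed from counts and lengths differed by at most 3.6e-06. Records broken over lines, 7 per file, were rejoined. Loci without a name, 0.396% to 0.464% of the counts, were left out.

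Counts of all named genes were kept with filterByExpr (minimum count 10), scaled with TMM and compared by the two-sided quasi-likelihood F test of edgeR 4.0.16 with Benjamini-Hochberg adjustment over 14860 genes. Levels between genes were compared in TPM. Shares and genes under the filter were compared by two-sided exact permutation tests, whose smallest p here is 0.1. Python 3.11.15 with scipy 1.17.1 and pandas 2.3.3 and R 4.3.3 with DESeq2 1.42.0 and limma 3.58.1 were used. The edgeR test was checked on simulated data with 200 changed genes and the same dispersion for every gene. In the real data 6582 genes were called, so this check does not cover changes as widespread as these. Alternatives were DESeq2, limma-voom, RLE factors, scaling by total counts, no filter, a minimum mean of 50 counts, each library left out and a replicate block.

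The members, lists and tests were chosen with earlier results of these data known. Named were all members, all tested genes of lists with 6 or fewer tested and otherwise the 4 with the largest change, genes at 0, and, for the called members with the largest change in size (FST and INHBA), the 3 genes nearest in pattern. Genes named outside this rule were chosen after their values were seen. Some marker genes are not reported here by name. Sequences are from RefSeq (GRCh38.p14), where 6 of the 7 members had a promoter window, all but INHBE.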

Additional observations from a re-analysis of the deposited data

How the results depend on the processing

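INHBA, FSTL3, INHBE and FST kept their direction and their call in every alternative that tested them, and FSTL1 kept its direction in all 13 and its call in 7. The members called lower were 1 with a mean of at least 50 counts, where FST was not tested. Without 1 library at a time, 2 to 3 members were called higher and 2 lower, 12 to 16 list genes were called, the INHBA share differed by 5.42 to 5.57 points and the FST share by -0.475 to -0.435. Correlations between the deviations of same-numbered libraries from their group means were 0.111, -0.012 and 0.076. Those between libraries of unlike number ran from -0.149 to 0.088. These values cannot exclude that replicate numbers pair the libraries, and the labels state no pairing. With the replicate block, 3 members were called higher and 2 lower, 3396 and 3394 genes were called in all, and the log2 fold changes were 1.35 for INHBA, 1.03 for FSTL3, 0.32 for FSTL1, -0.40 for INHBE and -2.10 for FST. With TPM replaced by FPKM the shares were the same by construction. Depth limits INHA, INHBB and FST, whose group sums did not exceed 5, 8 and 81 reads.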

Other observations

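Genes next to the members were read as well, and those named here were chosen after their values were seen. INHBA-AS1, a noncoding RNA that runs antisense to INHBA, had 104, 103 and 119 reads in the control libraries and 187, 273 and 231 in the TGF-β1 libraries. The groups did not overlap, with means of 4.63 ± 0.431 and 9.83 ± 2.30 CPM (SD, n = 3) and a log2 fold change of 1.08 ± 0.17 (edgeR adjusted p = 5.4e-04). In the deposited gene models INHBA-AS1 and INHBA share 0 exon bases, and the nearest INHBA-AS1 exon beyond the INHBA end at 41710532 lies after a gap of 65 bases. Whether the counting used strand is not stated, so reads of the antisense pair cannot be fully told apart.

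GLI1, the transcription factor of Hedgehog signalling, starts 1760 bases beyond INHBE on the same strand. It rose from 0.604 ± 0.234 to 1.63 ± 0.341 CPM (SD, n = 3; log2 fold change 1.43 ± 0.29, edgeR adjusted p = 0.0025), whereas INHBE fell. GLI1 rests on few reads, 43 in control and 118 in TGF-β1 libraries, and was not tested with a mean of at least 50 counts. Next to FSTL3, RNF126, a ubiquitin ligase 13178 bases away, rose with a log2 fold change of 0.39 ± 0.08 (edgeR adjusted p = 0.0020). Next to INHA, OBSL1, a cytoskeletal adaptor 737 bases away, fell with -0.24 ± 0.06 (edgeR adjusted p = 0.0086), a call that was lost without control replicate 2, at -0.20 (edgeR adjusted p = 0.0544). Next to FST, NDUFS4, a subunit of mitochondrial complex I, had -0.13 ± 0.06 (edgeR adjusted p = 0.134). MIR198, whose 62 bases lie inside an FSTL1 exon on the same strand, was listed at 0 reads. Reads there cannot be told apart from those of FSTL1, so this value says nothing about the level of MIR198.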
